A study of Mus musculus with 3 samples.

Results

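The cells described here are the choroid plexus epithelial cells of a single-cell study of the mouse brain. They are the 880 cells that carry number 1 in the cluster column of the deposited cell table, out of 4668 cells in all, and they are called cluster 1 below. The choroid plexus is a folded sheet of epithelium over fenestrated capillaries inside the brain ventricles. Its epithelial cells secrete cerebrospinal fluid by moving ions and water from blood to ventricle, and their tight junctions form the barrier between blood and cerebrospinal fluid. They also release carrier proteins, growth factors and enzymes into the fluid, and are a route by which immune cells can enter the brain.

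The study used CITE-seq, in which antibodies bound to a cell bring a short DNA tag into its droplet and are counted there beside its mRNA. Brains came from female C57Bl/6 mice of 2 to 3 months, either naive or with established metastases of the murine mammary carcinoma line E0771, about 2 weeks after injection of the cells into the carotid artery. Suspensions were enriched for immune cells on a Percoll gradient, so epithelial cells are present beside the cells that were sought. The 4 brains were each stained with 6 antibodies and with a hashtag antibody of their own, and were then loaded as 1 pool. The sources used here leave unstated which hashtag went on a naive and which on a metastatic brain. The brains are therefore called by hashtag number and their values kept apart. With 1 brain per hashtag, differences between brains carry no p-value and are read from counting intervals.

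A cell was placed in a brain by the 15-base tag of its hashtag antibody, and these 4 sequences are shown because every comparison between brains rests on them. Capitals mark the whole tag. Any pair of them differs at no fewer than 11 bases.
Hashtag 1: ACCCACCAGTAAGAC
Hashtag 2: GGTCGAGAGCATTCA
Hashtag 3: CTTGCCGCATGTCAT
Hashtag 4: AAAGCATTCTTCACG
The surface of cluster 1 was read from 6 further tags, of which CD45, a protein of the surface of white blood cells, and CD11b, an integrin of myeloid cells, are used most below.
CD45: TGGCTATGGAGCAGA
CD11b: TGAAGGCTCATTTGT

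For hashtags 1, 2, 3 and 4, cluster 1 held 291, 206, 181 and 202 cells with 1882420, 1493293, 1788453 and 1893849 unique molecular identifiers (UMIs, each standing for 1 captured mRNA). The median cell had 7282.5 UMIs, against 11556 in all other cells, and a mitochondrial share of 8.39%, against 1.58%. The hashtag stain of these cells was weak. The median cell carried 357 hashtag counts, against 1309 in all other cells, and 75.9% of them came from its own hashtag, against 92.0%. The median share of any single foreign hashtag was between 2.82% and 10.3% in the 4 brains. In 355 of the 880 cells the own hashtag made up at least 80% of the hashtag counts. No cell barcode occurred more than once among the 4668 cells.

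Cluster 1 made up 34.5% of the cells of the hashtag 1 brain (exact binomial 95% interval 31.3 to 37.8%), 50.2% of the hashtag 2 brain (45.3 to 55.2%), 13.1% of the hashtag 3 brain (11.3 to 15%) and 9.96% of the hashtag 4 brain (8.69 to 11.3%). Outside clusters 0, 2 and 7, the clusters with the highest summed levels of the homeobox genes Rhox5 and Esx1, the shares were 38.8%, 56.3%, 30.2% and 26.0% in the same order. On both denominators the brains with hashtags 1 and 2 held the larger shares. Gradient enrichment and hashtag staining act on such shares, and their part was not tested. Intervals here and below cover counting error only.

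The markers that the label rests on are Ttr, Kl, Folr1 and Enpp2. Ttr encodes transthyretin, the carrier of thyroid hormone in cerebrospinal fluid, and was at 3163, 3208, 3099 and 2645 UMIs per 10000 in cluster 1 of the brains with hashtags 1, 2, 3 and 4, against 582, 651, 259 and 196 in the endothelial cluster 4 and 287, 200, 213 and 311 in the CD45-tagged clusters 3 and 6. A single gene thus gave a large share of the captured mRNAs of these cells, and cluster 1 lay above both kinds of cells in every brain. Enpp2, the gene of the secreted enzyme autotaxin (chr15:54838901-54952789, GRCm38.p6), was at 142, 160, 99.4 and 87.7 per 10000 in cluster 1, against 21.3, 22.6, 8.65 and 6.61 in cluster 4 and 12.4, 5.63, 7.56 and 9.83 in clusters 3 and 6. Kl, the gene of klotho (chr5:150952607-150993817), was at 14.6, 16.2, 8.62 and 8.41, against 2.39, 1.42, 0.863 and 0.610 in cluster 4. Folr1, the folate receptor that carries folate into the fluid (chr7:101858331-101870788), was at 6.30, 6.89, 6.96 and 5.33, against 1.15, 1.23, 0.680 and 0.273 in cluster 4. For all 4 genes cluster 1 lay above both comparisons in every brain. Since the label rests on these markers, their levels describe it and are no check of it. They did not set it apart from cluster 5, where the brains with hashtags 1 and 2 had 146 and 147 Enpp2 UMIs per 10000, 14.1 and 15.1 of Kl and 4.66 and 6.21 of Folr1. In the brains with hashtags 3 and 4 cluster 5 had 46.4 and 38.7 of Enpp2 and 3.49 and 4.41 of Kl, below cluster 1.

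Because clusters were made from the same mRNA, these differences describe the cluster and are no test. RNA of the 4 marker genes was also found outside it. With each cell thinned to 2495 UMIs, 87.5% of cluster 1 cells and 11.2% of cells of clusters 3 and 6 had a Kl UMI, with unthinned shares of 97.5% in cluster 1 and median depths of 7282.5 and 3753 UMIs. For Folr1 the thinned shares were 76.8% and 7.66%, and for Ttr 100% in both. The ratio of Enpp2 to Ttr was 39.9 Enpp2 UMIs per 1000 Ttr UMIs in cluster 1 (exact Poisson 95% interval 39.7 to 40.2), 40.5 (38.1 to 43.0) in cluster 6, 33.6 (32.0 to 35.4) in cluster 3 and 34.8 (33.4 to 36.3) in cluster 4. It was 18.8 (18.1 to 19.5) in cluster 8 and 54.4 (53.2 to 55.7) in cluster 5, the lowest and the highest of the 11 clusters. Of the 3788 cells outside cluster 1, 461 (12.2%) had a Ttr level above 1004 per 10000, the 5th percentile of cluster 1, and 124 of them lay in cluster 5 and 115 in cluster 8. Whether such cells are damaged epithelial cells, mixed droplets or other cells with free RNA was not tested.

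**Figure D1:**
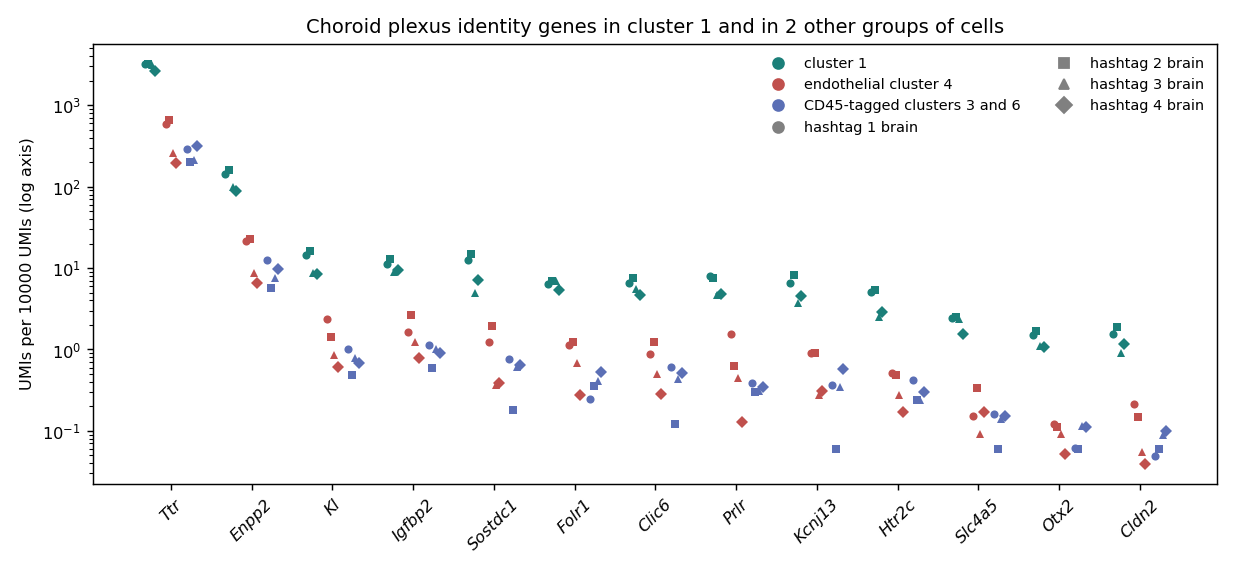
Levels of 13 choroid plexus identity genes (UMIs per 10000 UMIs, log axis) in cluster 1, the endothelial cluster 4 and the CD45-tagged clusters 3 and 6, from left to right for each gene. Each point is 1 brain. For each of these genes all 4 points of cluster 1 lie above all points of the other cells, from Ttr at 2645 to 3208 down to Cldn2 at 0.917 to 1.90.

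Endothelial and immune markers were low in cluster 1, while ependymal markers were higher there than in both comparisons. The summed level of 5 endothelial markers was between 1.39 and 2.00 per 10000 in cluster 1, against 21.1 to 50.2 in cluster 4. That of 7 immune markers, among them Csf1r, Cx3cr1 and the complement genes C1qa and C1qb, was between 3.09 and 4.41, against 57.3 to 184 in clusters 3 and 6. That of 7 ependymal markers was between 2.61 and 3.54, against 0.386 to 0.969 in cluster 4 and 0.240 to 0.356 in clusters 3 and 6. Ependymal cells and choroid plexus cells share genes of cilia, and the part of ependymal RNA in these sums was not tested. Sums of 4 markers each stood between 0.276 and 0.368 for astrocytes, 0.123 and 0.383 for neurons and 0.0671 and 0.159 for oligodendrocytes.

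Few genes stood out against all other cells of the same brain, which also held choroid plexus RNA. A gene was called higher when the log2 ratio of cluster 1 to the comparison, each level taken plus 0.1 per 10000, was at least 2 in each of the 4 brains, and lower when it was at most -2 in each. Genes were tested where the mean level over the profiles compared was at least 0.1 per 10000. Against all other cells 2 of 7510 genes were called higher (0.0266%) and 1 was called lower (0.0133%). The genes called higher were Kcnj13, which encodes a potassium channel of the ventricular face of the epithelium, and Defb11, a member of the beta-defensin family of antimicrobial peptides. The gene called lower was the histone gene Hist1h2ap. Ttr itself was not called, since all other cells had 1026, 1146, 166 and 155 Ttr UMIs per 10000 in the brains with hashtags 1, 2, 3 and 4. The cells of clusters 4 and 3 and 6 were therefore used as comparisons beside all other cells, a choice made after the data were seen. Cluster 6 gave 171, 9, 26 and 17 cells for hashtags 1, 2, 3 and 4, and cluster 3 gave 21, 34, 155 and 194. Values of clusters 3 and 6 in different brains thus come from different mixes of cells.

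Kcnj13 (chr1:87384577-87394729) was at 6.48, 8.16, 3.71 and 4.49 per 10000 in cluster 1 of the 4 brains, against 1.42, 1.81, 0.175 and 0.186 in all other cells. Defb11 (chr8:21905374-21906432) was at 4.14, 4.0, 3.11 and 2.73 in cluster 1, against 0.879, 0.849, 0.0647 and 0.0815. Cluster 1 was above all other cells in every brain for both genes, and the other cells of the brains with hashtags 1 and 2 were above those of the brains with hashtags 3 and 4. Defb11 belongs to a family of similar genes, so reads of near copies may be counted under it.

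Against the endothelial cluster 4, 50 of 7757 genes were called higher (0.645%) and 69 were called lower (0.89%). Against clusters 3 and 6, 96 of 7679 were called higher (1.25%) and 188 were called lower (2.45%). Both comparisons called 46 genes higher, of which 19 belonged to a list of 29 identity genes. One gene, Tmsb4x, which encodes an actin-binding thymosin, was called lower in both. Beyond the identity list, the genes called higher than cluster 4 by the widest margin were led by Cntn1, a neural cell adhesion gene, Defb11, Prr32, Atp1b1, Slc12a2, Emb, Arl6ip1, Vldlr and Ntrk2. Cntn1 stood at 3.31, 4.01, 1.89 and 2.12 per 10000 in cluster 1, against 0.302, 0.298, 0.0735 and 0.0519 in cluster 4. Lower by the widest margin were endothelial genes, namely Cldn5, Cd200, Tmem252, Flt1, Vwf, Esam, Fn1, Ly6a, Cd93 and Pglyrp1. Against clusters 3 and 6 they were genes of white blood cells, namely Lyz2, Cd52, Tmsb4x, Tyrobp, Coro1a, Plac8, Alox5ap, Rac2, Fcer1g and Lst1.

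Of the 29 identity genes, 27 could be read in these comparisons, and 19 were called higher than cluster 4 and 23 higher than clusters 3 and 6. Their median log2 ratios were 2.73 and 3.04, against -0.33 and -0.14 over all genes tested. Since the list was chosen for this tissue with results known, these numbers only describe it. Otx2, a homeodomain transcription factor that the choroid plexus needs to form (chr14:48656781-48667644), was at 1.49, 1.68, 1.10 and 1.06 per 10000 in cluster 1, against 0.121, 0.112, 0.0918 and 0.0519 in cluster 4. Htr2c, a serotonin receptor (chrX:146962464-147197277), was at 5.10, 5.36, 2.52 and 2.86, against 0.514, 0.485, 0.276 and 0.169. Prlr, the prolactin receptor (chr15:10177238-10349190), was at 7.95, 7.63, 4.66 and 4.78, against 1.54, 0.634, 0.441 and 0.130. In each brain the 3 genes were above cluster 4, and in cluster 1 the brains with hashtags 1 and 2 lay above the others.

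Identity genes that were not called against either comparison were Aqp1, Wfdc2, Vat1l and Abca4. Aqp1, the water channel of the epithelium, was at 1.02, 0.964, 0.749 and 0.929 per 10000 in cluster 1, against 0.272, 0.708, 0.276 and 0.389 in cluster 4, where log2 ratios ranged from 0.40 to 1.59. Lmx1a and Mfrp fell under the filter on low values, with levels of at most 0.147 and 0.0581 per 10000 in cluster 1.

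The promoters of the identity genes were searched for the motif TAATCC, or GGATTA on the other strand, the core that Otx2 and related homeodomain proteins bind. RefSeq promoters (GRCm38.p6, 250 bases before and 50 after each gene's start) matched 23 of the 29 genes, and 5 of these (21.7%) held it, namely Otx2, Mfrp, Vat1l, Abca4 and Car14, against 8.14% of 27025 genes. A gene with several start sites has several windows, and counted by window the shares were 5 of 33 (15.2%) and 7.06%. The 250 bases before a start are shown for Otx2, which was called higher than both comparisons, and for Car14, a membrane carbonic anhydrase called higher than clusters 3 and 6. RefSeq gives Otx2 4 start sites, and the window shown is that of an internal one, the only one of the 4 with the motif. Each is read 5′ to 3′ on the gene's strand, and capitals mark the motif.
Otx2, chr14:48665110-48665359, minus strand: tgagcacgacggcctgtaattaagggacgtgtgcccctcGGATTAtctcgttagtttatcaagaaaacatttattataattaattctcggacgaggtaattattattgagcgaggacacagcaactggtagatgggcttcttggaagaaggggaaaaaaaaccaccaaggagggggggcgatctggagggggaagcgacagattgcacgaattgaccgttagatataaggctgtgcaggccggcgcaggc
Car14, chr3:95904686-95904935, minus strand: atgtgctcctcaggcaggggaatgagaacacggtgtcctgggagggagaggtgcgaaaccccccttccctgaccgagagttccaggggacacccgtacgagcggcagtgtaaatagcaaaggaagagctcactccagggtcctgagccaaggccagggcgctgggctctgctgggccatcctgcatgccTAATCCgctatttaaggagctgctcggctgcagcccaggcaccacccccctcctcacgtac
A match of letters is a description of these windows and no evidence of binding.

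Counts of list members below are to be read against the shares of all genes, 0.645% higher and 0.89% lower against cluster 4, and 1.25% higher and 2.45% lower against clusters 3 and 6. Several of these lists share genes with the identity list. Genes of fluid secretion formed the next group, and the identity genes Kcnj13, Slc4a5, Clic6 and Car12 are among those called higher than cluster 4. Of 28 genes for moving ions and water, 24 were tested against cluster 4, where 8 were called higher and 1 lower, and 23 against clusters 3 and 6, where 12 were called higher. The medians of the log2 ratio were 1.97 and 2.34. Atp1b1, a subunit of the sodium pump, was at 8.49, 8.55, 5.27 and 4.55 per 10000 in cluster 1, against 1.3, 1.23, 0.680 and 0.428 in cluster 4. Slc12a2, the sodium, potassium and chloride cotransporter NKCC1, was at 6.01, 5.69, 6.09 and 3.45, against 0.816, 0.820, 0.937 and 0.441. Slc4a5, a sodium bicarbonate cotransporter, was at 2.45, 2.53, 2.37 and 1.55, against 0.151, 0.336, 0.0918 and 0.169. For Slc12a2 and Slc4a5 the brains with hashtags 1, 2 and 3 lay close together, and the hashtag 4 brain was the lowest.

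Slc4a10, a sodium-coupled bicarbonate transporter, was at 5.23, 5.88, 3.89 and 3.46 per 10000 in cluster 1, against 0.635, 1.08, 0.422 and 0.117 in cluster 4. Fxyd1, a regulator of the sodium pump, was at 11.9, 11.6, 13.9 and 11, against 1.26, 1.08, 1.49 and 1.27 in clusters 3 and 6. Kcne2, a potassium channel subunit, was at 2.14, 2.12, 1.11 and 1.41, against 0.148, 0.180, 0.0509 and 0.0993 in clusters 3 and 6. All 3 were called higher than clusters 3 and 6, and Slc4a10 also higher than cluster 4. The gene called lower than cluster 4 was Car4, a carbonic anhydrase of capillary endothelium, at 0.0335 to 0.0638 per 10000 in cluster 1.

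Of 30 genes of secreted and carrier proteins, 27 were tested against cluster 4 and 26 against clusters 3 and 6. Against cluster 4, 6 were called higher and 2 lower, and against clusters 3 and 6, 11 were called higher, with median log2 ratios of 1.23 and 1.92. The 6 called higher than cluster 4 all belong to the identity list too. Igfbp2, which binds insulin-like growth factors, was at 11.2, 13.0, 9.04 and 9.36 per 10000 in cluster 1, against 1.66, 2.68, 1.23 and 0.779 in cluster 4. Its ligand gene Igf2 was at 2.81, 3.50, 2.49 and 2.36, against 0.185, 0.12, 0.191 and 0.221 in clusters 3 and 6. Ptgds, the prostaglandin D synthase that is also a carrier protein of the fluid, was at 16.6, 15.3, 17.8 and 13.9, against 1.88, 1.62, 1.99 and 1.99 in clusters 3 and 6. For each of the 3 genes all values of cluster 1 lay above those of the comparison given for it. Igf2 and Ptgds were not called higher than cluster 4. Ptn, a growth factor, and Cp, a copper-binding ferroxidase, were lower than cluster 4, with log2 ratios of at most -2.34 and -2.0 in every brain.

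Nutrient and drug transporters were divided. Of 25 tested against cluster 4, 3 were called higher, with a median log2 ratio of 0.413, and 3 were called lower. The higher ones were Folr1, Slc13a4, a sulfate transporter, and Slc2a12, a glucose transporter. Slc13a4 was at 2.11, 2.3, 1.65 and 1.37 per 10000 in cluster 1, against 0.242, 0.336, 0.147 and 0.0649 in cluster 4. The lower ones were Slc2a1, the glucose transporter of brain capillaries, and the efflux pump genes Abcg2 and Abcb1a. Slc2a1 was at 0.446, 0.288, 0.654 and 0.518 in cluster 1, against 4.17, 2.68, 8.23 and 2.79 in cluster 4. Against clusters 3 and 6, 5 of 25 were called higher and none lower, with a median of 1.63.

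Of 13 junction and epithelial genes tested against cluster 4, Cldn1 and Cldn2 were called higher and Cldn5, the main claudin of brain endothelium, was called lower. Cldn2, which forms pores for cations and water, was at 1.55, 1.90, 0.917 and 1.16 per 10000 in cluster 1, against 0.212, 0.149, 0.0551 and 0.0389 in cluster 4. Cldn1, a sealing claudin, was at 0.919, 0.877, 1.12 and 0.618, against 0.0302, 0.0746, 0.0551 and 0.0779. The keratin gene Krt18 was called higher than clusters 3 and 6, beside Cldn2. The median log2 ratio of the list was -0.33 against cluster 4 and 0.951 against clusters 3 and 6.

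Genes of cilia, which choroid plexus cells carry in tufts, were low but present. The 24 genes summed to 8.76, 9.54, 6.13 and 7.45 per 10000 in cluster 1, against 3.87, 3.73, 2.77 and 2.75 in cluster 4 and 2.85, 1.62, 2.05 and 2.31 in clusters 3 and 6. Foxj1, the transcription factor of motile cilia, was at 0.483, 0.395, 0.235 and 0.285 in cluster 1, against 0.0302, 0.0373, 0.0184 and 0.0260 in cluster 4. After thinning, 9.09% of cluster 1 cells and 1.12% of cells of clusters 3 and 6 had a Foxj1 UMI, with an unthinned share of 23.0% in cluster 1. Of 13 cilia genes tested against cluster 4 none was called, and of 12 tested against clusters 3 and 6 only Dynlrb2, a dynein light chain gene, was called higher. The medians of the log2 ratio were 1.56 and 1.67.

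**Figure D2:**
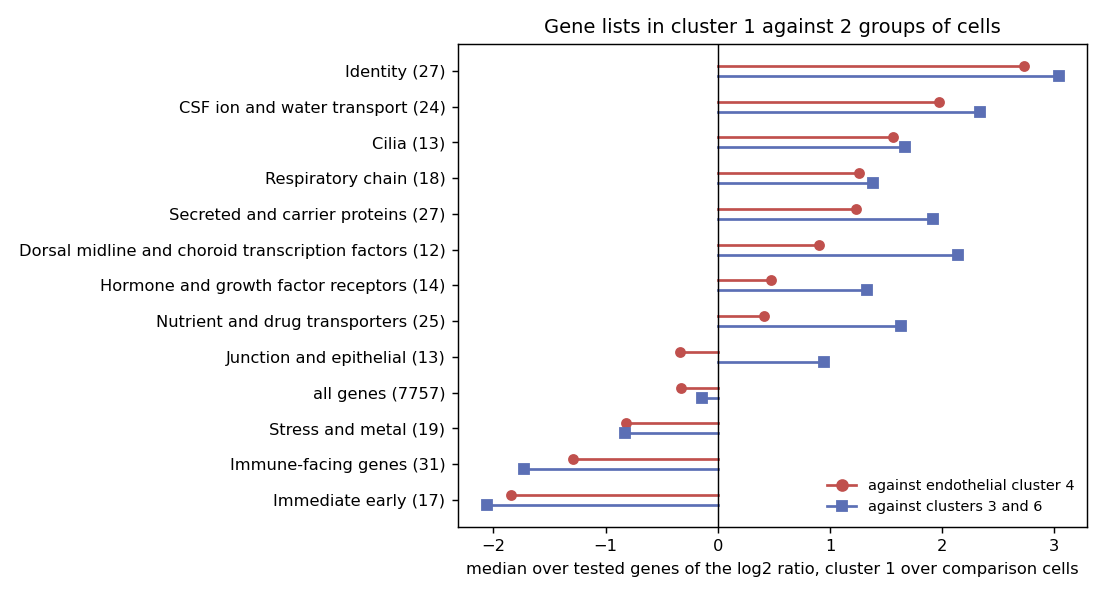
Median over the tested genes of 12 functional lists, and over all genes, of the log2 ratio of cluster 1 to the endothelial cluster 4 (circles) and to the CD45-tagged clusters 3 and 6 (squares), with the number tested against cluster 4 in brackets. Among the lists drawn, which leave out the markers of other cell types, identity genes stand highest, at 2.73 and 3.04, and immediate early genes lowest, at -1.84 and -2.06, against -0.33 and -0.14 over all genes.

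Transcription factors of the dorsal midline gave 1 call in 12 against cluster 4, Otx2, and 4 in 11 against clusters 3 and 6, Otx2, Msx1, Sox9 and Hes1. Regional genes were rare. A list of 7 forebrain transcription factors summed to 0.494 (exact Poisson 95% interval 0.399 to 0.605), 0.529 (0.419 to 0.659), 0.369 (0.285 to 0.470) and 0.306 (0.233 to 0.396) per 10000 in cluster 1 of the brains with hashtags 1, 2, 3 and 4, against 0.0604, 0.0746, 0.110 and 0.0260 in cluster 4. Six3, a homeobox gene of the anterior forebrain, was at 0.239, 0.248, 0.207 and 0.169, against 0.0584, 0.0676, 0.00588 and 0.0037 in all other cells. The 11 hindbrain genes in the table, among them Hox genes, summed to 0.0903, 0.0804, 0.0447 and 0.0634 in cluster 1, against 0.136, 0.240, 0.0763 and 0.144 in clusters 3 and 6 and 0.0302, 0.112, 0.0367 and 0.0389 in cluster 4. The forebrain sums were thus above both comparisons in every brain. Of the 7 forebrain genes, only 1 passed the filter on low values against cluster 4 and only 1 against clusters 3 and 6. None was called. Hindbrain sums rested on 17, 12, 8 and 12 UMIs in cluster 1. Their exact Poisson 95% intervals were 0.0526 to 0.145, 0.0415 to 0.14, 0.0193 to 0.0881 and 0.0327 to 0.111. These hold the levels of clusters 3 and 6 for hashtags 1 and 3, and of cluster 4 for hashtags 2, 3 and 4. No order of the groups is read from hindbrain genes. None of the hindbrain genes passed the filter on low values.

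Of 18 respiratory chain genes, none was called against cluster 4 and 1 was called higher than clusters 3 and 6, with medians of 1.26 and 1.38. The summed level was 971, 1031, 726 and 715 per 10000 in cluster 1, against 415, 409, 325 and 256 in cluster 4. The called gene was Chchd10, a gene of the mitochondrial intermembrane space, at 14.3, 13.9, 10.4 and 10.8, against 2.25, 1.80, 1.68 and 1.90 in clusters 3 and 6. The higher mitochondrial share of cluster 1 moves with this list, since 8 of its 18 genes are encoded by the mitochondrial genome. Whether cell damage has a part in it was not tested.

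Genes that face the immune system had negative median log2 ratios against both comparisons. None of 31 tested was called higher than cluster 4, 1 (Cxcl12, the gene of a chemokine) was called lower, where 0.89% of all genes were, and the median log2 ratio was -1.29, against -0.33 over all genes. Against clusters 3 and 6 none of 32 was called higher and 5 were called lower (Ifngr1, B2m, H2-D1, Ifitm3 and Lcn2), where 2.45% of all genes were, with a median of -1.73, against -0.14. Against all other cells none of 30 was called in either direction. B2m, the light chain of MHC class I, was at 4.36, 3.71, 5.84 and 7.84 per 10000 in cluster 1, against 24.6, 24.3, 19.2 and 19.4 in cluster 4. Ifngr1, a chain of the interferon gamma receptor, was at 0.154, 0.147, 0.129 and 0.195, against 1.16, 1.98, 2.71 and 1.76 in clusters 3 and 6. For both genes cluster 1 was below cluster 4 and below clusters 3 and 6 in every brain. Cxcl10, the interferon-induced chemokine gene of the study's title, was between 0.0469 and 0.121 in cluster 1, where log2 ratios against cluster 4 ranged from -1.74 to -0.55.

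The antibody tags were counted separately from the mRNA, and whether they entered the clustering is not given in the sources used here. Clusters 3 and 6 were taken as the immune comparison with their high CD45 tag already known, so the CD45 difference to them is partly set by that choice. The CD45 tag had median counts of 39, 37, 38 and 42.5 per cell in cluster 1, against 2336, 5024, 6890 and 7087 in clusters 3 and 6. The CD11b tag had 39, 41, 39 and 45, against 1970.5, 3757, 5417 and 4880. Cluster 1 lay below clusters 3 and 6 by more than the spread over the 4 brains, by mean log2 differences of -6.93 for CD45 and -6.48 for CD11b. CD86, a costimulatory protein, had 9, 10, 10 and 11, against 37, 154, 143 and 249, a mean log2 difference of -3.46. Each of the 3 tags was lower in 4 of 4 brains, with p = 0.125 in a two-sided exact sign-flip permutation test over brains, the smallest value that 4 brains allow, and 0.375 after Benjamini-Hochberg adjustment over 18 tests.

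Against the non-immune clusters the median tag counts of cluster 1 differed little, and means differed more. The CD45 medians of cluster 1 given above stood against 43, 45, 47 and 45 in cluster 4, a mean log2 difference of -0.198 with cluster 1 lower in 4 of 4 brains (exact p = 0.125, adjusted 0.375), and the differences by brain ran from -0.30 to -0.08. Against the smooth muscle-like cluster 9 the mean log2 difference of CD45 was -0.13, with brains between -0.55 and 0.16, and it was -1.39 with means in place of medians. None of the 18 tests passed 0.05 adjusted, and with 4 brains none could. A minority of cluster 1 cells carried many CD45 tags, and the 95th percentile was 931.5, 515.8, 222 and 2552 counts in the brains with hashtags 1, 2, 3 and 4.

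**Figure D3:**
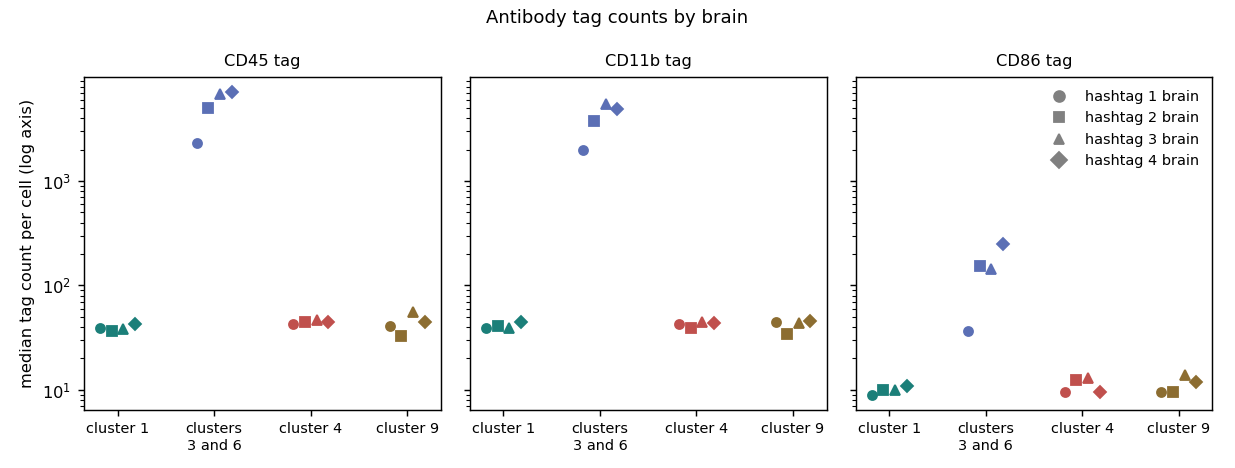
Median count per cell of the CD45, CD11b and CD86 tags (log axis) in cluster 1, the CD45-tagged clusters 3 and 6, the endothelial cluster 4 and cluster 9, with 1 point per brain. Cluster 1 sits at 37 to 42.5 CD45 counts, against 2336 to 7087 in clusters 3 and 6, and near clusters 4 and 9.

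Within cluster 1 the brains differed in 217 of 1998 genes (10.9%) by a rule that asks for a highest level of at least 2 times the lowest, with exact Poisson 95% intervals that do not overlap. The 1998 are the genes with a mean level of at least 0.5 per 10000 over the 4 brains. Of the 217, 155 were highest in the hashtag 4 brain and 154 were lowest in the hashtag 2 brain. The genes with the widest range were Gm8730, Gm9844, Tmsb10, Hba-a2, Hmga1, Gm9493, Gm10036, Hbb-bt, Wfikkn2, Rpl13-ps3, Hba-a1, Hist1h2ap, Rpl13, Emp3 and S100a6. Several are processed copies of ribosomal protein genes and are uncertain, since reads of near-identical copies can be split between them. Rpl13, a ribosomal protein gene, was at 22.6, 16.9, 46.9 and 61.3 per 10000 in cluster 1 of the brains with hashtags 1, 2, 3 and 4, against 90.4, 97.5, 111 and 145 in cluster 4. Without the hashtag 2 brain the count of differing genes was 133, and without the hashtag 4 brain 112. Among the 355 cells with at least 80% own hashtag it was 516.

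Rhox5 and Esx1 were highest in the hashtag 4 brain, as were 155 of the 217 genes. They were lowest in the hashtag 2 brain, as were 154 of the 217. Others of the 217 had other orders, and 42 were highest in the hashtag 2 brain. The summed level of Rhox5 and Esx1 was 1.04, 0.723, 2.29 and 2.48 per 10000 in cluster 1 of the brains with hashtags 1, 2, 3 and 4. In clusters 0, 2 and 7 it was 6.30, 5.97, 10.7 and 8.91. Cells of cluster 1 with at least 3 such UMIs per 10000 numbered 19, 11, 26 and 43. In the brains with hashtags 3 and 4 these cells had median Ttr levels of 1181 and 1332, against 3777 and 3475 in the other cells of cluster 1. For hashtags 1 and 2 the medians were 2592 and 3387, against 3307 and 3286. Cells with high Rhox5 and Esx1 and low Ttr were thus seen mainly in the brains with hashtags 3 and 4. The cut depends on depth, and in the shallowest cell of cluster 1, at 2570 UMIs, a single UMI would pass it. The 90th percentile of Rhox5 was 1, 1, 4 and 4 UMIs per cell in the brains with hashtags 1, 2, 3 and 4. Cells past the cut may therefore not be alike in the 4 brains.

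**Figure D4:**
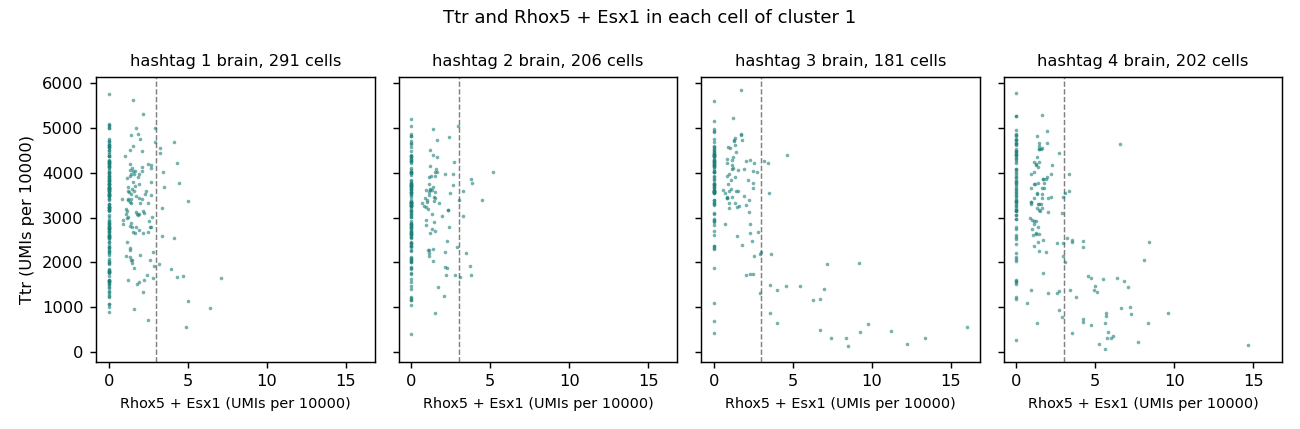
Ttr against the sum of Rhox5 and Esx1 in each cell of cluster 1 (both in UMIs per 10000 UMIs), with 1 panel per brain and a dashed line at 3 UMIs per 10000. Right of the line lie 19, 11, 26 and 43 cells for hashtags 1 to 4, with a median Ttr of 1181 (hashtag 3) and 1332 (hashtag 4) there.

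Without these cells, a setting chosen after the data were seen, 48 of 1931 genes differed between brains (2.49%), of which 44 were among the 217. Ribosomal protein genes met the rule in 49 of 77 cases with all cells and in 2 of 76 without them. Their summed level was 774, 659, 1171 and 1405 per 10000 in all cells of cluster 1, and 685, 635, 763 and 938 without the cells high in Rhox5 and Esx1. The genes B2m, H2-D1, Ifitm3 and Bst2, which respond to interferon in many cells, met the rule with all cells and did not without them. H2-D1 was at 1.88, 1.5, 2.98 and 4.03 with all cells and at 1.68, 1.40, 1.81 and 2.3 without them. Identity genes other than Ttr summed to 266, 297, 188 and 175 with all cells, and to 276, 299.5, 222 and 216 without them. These sums were highest in the brains with hashtags 1 and 2 either way. Enpp2 alone gave 142, 160, 99.4 and 87.7 of the sums with all cells. The order was not that of every identity gene, and Folr1 was highest in the hashtag 3 brain with and without the cells high in Rhox5 and Esx1. Ttr itself was at 3250, 3233, 3652 and 3277 without them. Whether mixed droplets, free RNA or the state of the cells gave this was not tested.

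Of the identity genes, 6 of 26 tested differed between brains with all cells, where 10.9% of all genes did. Without the cells high in Rhox5 and Esx1 it was 1 of 27, where 2.49% of all genes did. Sostdc1 was the single identity gene that differed between brains in both settings. It encodes a secreted antagonist of BMP and Wnt signals (chr12:36314169-36318452) and was at 12.7, 14.7, 4.88 and 7.21 per 10000 in cluster 1 of the brains with hashtags 1, 2, 3 and 4. Without the cells high in Rhox5 and Esx1 it was at 13.3, 14.7, 5.72 and 9.13. The brains with hashtags 1 and 2 were highest and the hashtag 3 brain lowest either way. Strip2, a gene of a kinase and phosphatase scaffold, was at 1.91, 2.12, 0.637 and 1.10, and Npr3, the clearance receptor of natriuretic peptides, at 0.871, 0.810, 0.257 and 0.444. Both had the order of Sostdc1 or close to it. Slc4a2, an anion exchanger of the blood-facing side, was at 2.17, 2.47, 1.13 and 1.56.

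Chaperones of the endoplasmic reticulum, where secreted proteins fold, were often highest in the hashtag 2 brain and lowest in the hashtag 3 brain. With all cells 10 of 12 were highest and 9 of 12 lowest in those brains, and Canx, which encodes calnexin, was among those lowest in the hashtag 4 brain. Of the 12 tested with all cells, 5 met the rule, and 7 of 11 did so without the cells high in Rhox5 and Esx1, against backgrounds of 10.9% and 2.49%. This list was drawn up after the values had been seen. Hspa5, which encodes the chaperone BiP, was at 7.73, 8.61, 3.48 and 4.97 per 10000 in cluster 1 of the 4 brains, against 2.48, 3.10, 2.42 and 1.74 in cluster 4. Hsp90b1, the gene of GRP94, was at 6.99, 7.67, 3.26 and 4.65, against 2.57, 3.43, 2.59 and 2.48. Calr, which encodes calreticulin, was at 5.67, 5.95, 2.86 and 4.47, against 2.84, 2.57, 2.96 and 3.05. The hashtag 3 brain was the lowest for each of these 3 genes in cluster 1, and the whole list summed to 39.3, 42.8, 22.1 and 29.5 in cluster 1, against 20.8, 21.1, 22.2 and 20.3 in cluster 4. In clusters 0, 2 and 7 the sums were 26.9, 27.2, 16.9 and 20.6, with the brains in the order of cluster 1. In clusters 3 and 6 they were 20.3, 27.0, 19.7 and 21.7. There too the hashtag 2 brain was highest and the hashtag 3 brain lowest, while the brains with hashtags 1 and 4 changed places. Identity genes summed to 892, 1241, 138 and 135 in clusters 0, 2 and 7. The part of choroid plexus RNA in the order seen there was not tested.

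A further set was highest in the hashtag 3 brain. Wfikkn2, the gene of a secreted protein that binds growth factors of the TGF-beta family, was at 0.526, 0.388, 1.35 and 0.248 per 10000. Slc6a20a, a transporter of imino acids, was at 0.898, 0.623, 1.5 and 0.481. Tc2n, a gene with C2 domains, was at 0.446, 0.328, 0.923 and 0.248. The hashtag 3 brain stood above the other three for each of these genes, and the interval of its level was clear of theirs. Rbm3, an RNA-binding protein gene induced by cold, was at 2.34, 2.20, 5.14 and 2.80 in cluster 1, against 4.87, 3.95, 7.24 and 5.31 in cluster 4 and 6.08, 5.93, 11.1 and 6.19 in clusters 3 and 6. For Rbm3 the hashtag 3 brain was highest in all 3 groups of cells.

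**Figure D5:**
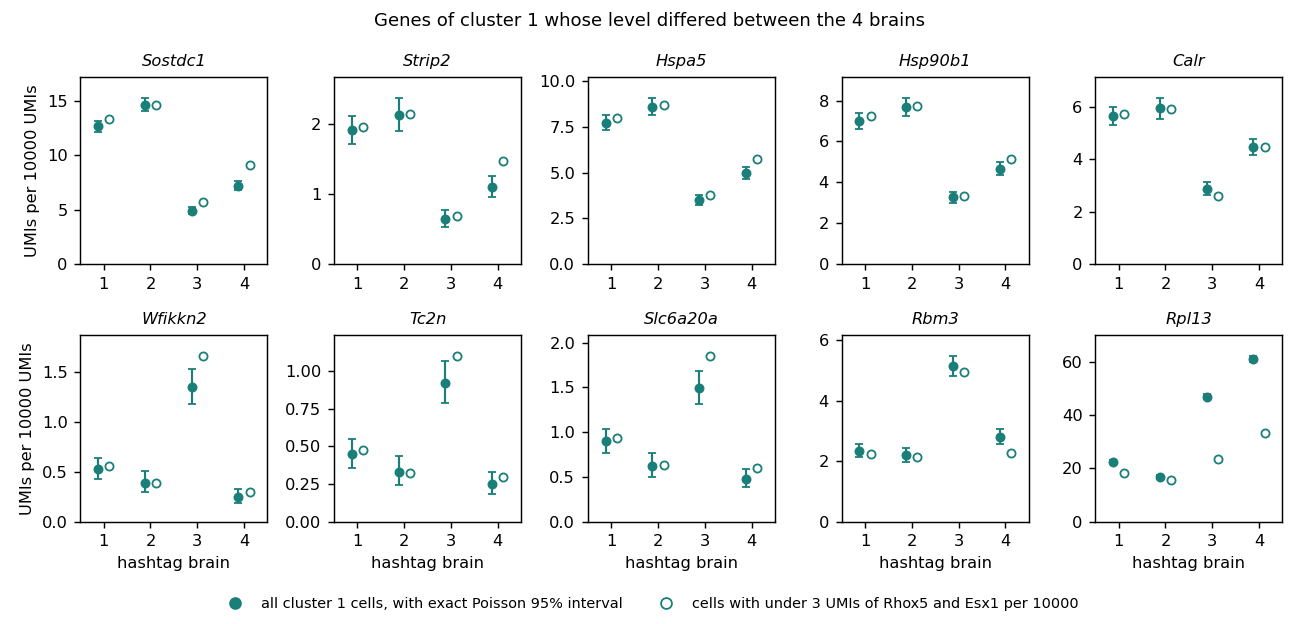
Levels of 10 genes in cluster 1 by brain (UMIs per 10000 UMIs), filled with all cells and exact Poisson 95% intervals, open with cells under 3 UMIs of Rhox5 and Esx1 per 10000. Sostdc1, Strip2 and the chaperone genes are lowest in the hashtag 3 brain, Wfikkn2, Tc2n, Slc6a20a and Rbm3 are highest there, and Rpl13 in the hashtag 4 brain is 61.3 with all cells and 33.4 without those high in Rhox5 and Esx1.

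Transcripts of blood cells also differed between brains in cluster 1. The 4 hemoglobin genes summed to 8.80, 9.08, 2.35 and 2.98 per 10000, against 20.6, 39.5, 9.81 and 13.5 in clusters 3 and 6 and 3.54, 45.2, 51.8 and 17.5 in cluster 4. The brains with hashtags 1 and 2 were highest in cluster 1 and in clusters 3 and 6, but not in cluster 4. The neutrophil gene S100a8 was at 5.48, 2.74, 2.01 and 3.70 in cluster 1, against 527, 68.2, 56.8 and 45.6 in clusters 3 and 6. Cluster 1 was far below clusters 3 and 6 in every brain. Clusters 3 and 6 were mixed in different shares in each brain, so their values are not those of a single kind of cell. The part of free RNA in these levels was not tested.

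Between cells of 1 brain, 18 of 1017 genes (1.77%) varied beyond counting noise by an excess squared coefficient of variation of at least 0.5 in each brain. The 1017 are the genes with a mean level of at least 1 per 10000. Among those called were Hist1h2ap, Cox8b, Pcp4, Trf, Abhd2, Malat1, Hmgb2, Egr1, Actb, Notch2, Zfp36, Maob, Gadd45g, Alkbh5, B4galt6, Fabp3 and Fos. No identity gene was among them, and the median excess of the 25 identity genes tested was 0.203, against 0.0217 over all genes tested. Among cells with little Rhox5 and Esx1, 11 of 956 genes met the rule (1.15%), of which 10 were among the 18. Hist1h2ap and Hmgb2, genes of chromatin in dividing cells, were among those that did not meet it there.

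Cox8b, a subunit of cytochrome oxidase known from muscle, was at 4.22, 4.23, 2.42 and 2.74 per 10000 with an excess of at least 1.70 in each brain. It was seen in 57.5% of cells of cluster 1, and after thinning in 38.8% of them and in 3.83% of cells of clusters 3 and 6. Pcp4, a small calmodulin regulator, was at 2.82, 2.81, 1.71 and 2.32 with an excess of at least 1.19, and Trf, the gene of transferrin, at 1.79, 1.31, 1.71 and 1.78 with an excess of at least 1.18. The 3 genes were thus patchy within each of the 4 brains, while their mean levels differed by less than 2 times between brains.

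Immediate early genes, which respond within minutes to stimulation and to cell dissociation, made up 3 of the 18, Egr1, Fos and Zfp36, out of 9 on the list that were tested. Egr1 was at 4.29, 4.65, 2.67 and 3.54 per 10000 in cluster 1, against 3.18, 10.7, 7.37 and 4.16 in clusters 3 and 6. Across the 880 cells, taken within brains, Egr1 correlated with Fos (r = 0.57), Hes1 (0.51) and Dusp1 (0.50), values that share the depth of each cell and are given as a description. The whole list summed to 32.2, 32.6, 25.5 and 29.8 per 10000 in cluster 1, against 144, 110, 69.3 and 54.0 in cluster 4 and 26.3, 35.2, 22.0 and 24.0 in clusters 0, 2 and 7. Cluster 1 was thus below cluster 4 in every brain, and near clusters 0, 2 and 7. Of 17 genes tested against cluster 4, Klf2 was called lower, and against clusters 3 and 6 Klf6 was. The part of the dissociation in these levels was not tested.

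Against other groups of cells, metal and stress genes gave 1 call, Mt3, a metallothionein of the brain, which was called higher than clusters 3 and 6. Mt3 was at 15.9, 16.3, 12.9 and 11.5 per 10000 in cluster 1, against 1.61, 1.08, 1.23 and 1.3. The other 18 genes of this list tested against clusters 3 and 6 were not called, and the median log2 ratio was -0.827. Between brains, 2 of 10 tested met the rule with all cells, where 10.9% of all genes did. Without the cells high in Rhox5 and Esx1 it was again 2 of 10, Mt2 and Hspa5, where 2.49% of all genes did. Of 14 hormone and growth factor receptors tested in each comparison, Prlr and Htr2c were called higher than cluster 4 and higher than clusters 3 and 6.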

How the data were processed

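In the authors' deposited gene table each value is a natural log, of 1 plus the cell's UMIs for the gene scaled to 10000, and the unlogged values of a cell sum to 10000. The deposited cell table gives the authors' UMI count, tag and hashtag counts, and the fraction of mitochondrial UMIs per cell, with hashtag class and cluster number. The mm10 build, Cell Ranger 2.1 and Seurat 2.3.4 are listed, per the submitters' processing notes, with no role stated, and tags were counted with CITE-seq-Count 1.3.4, per the series' design text. The sources used here do not give the inputs of the clustering or the filters on cells. Of the columns of the cell table, 6 were not used.

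Whole UMI counts were rebuilt by unlogging each value and scaling it by the cell's deposited UMI count, and 99.83% of nonzero values came out whole within 0.01. Levels are UMIs summed over the cells of a cluster and brain, per 10000 UMIs. The assay counts 3′ ends, so levels carry no length term and were not compared between genes. The excess squared coefficient of variation is the variance beyond the Poisson variance at each cell's depth, over the squared mean. Named genes are the 25 called higher and the 10 called lower by the widest margin, the 15 with the widest range between brains, the 20 most variable between cells, and members of gene lists. The text prints some of them, and 1 gene is not reported here. The members and lists were chosen with earlier results of these data known. Thinning took each cell to 2495 UMIs, the depth of the shallowest cell, so no cell was left out.

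Tag medians were compared within brains on log2(median + 1) by the exact sign-flip test. The brain pairs the clusters because their cells came from the same animal. Doublets were not called by any program. The cut at 80% own hashtag was a further setting and does not replace such calls. It cannot find droplets with several cells of the same brain, since such cells share a hashtag. With this cut the Ttr level of cluster 1 was 2767 in the hashtag 2 brain, against 3208 with all cells. It was lower in the other brains too. The part of mixed droplets in cluster 1 was not tested. On simulated counts, 191 of 200 genes raised 8-fold in cluster 1, 200 of 200 genes changed 4-fold in 1 brain and 185 of 200 genes with an added squared coefficient of variation of 1 were called, and none of the unchanged genes. These counts had Poisson noise around a single profile, shared by all brains and by the other cells. They held no differences between animals, mixed droplets or free RNA, so they give no error rate for the real data. Python 3.11.15, numpy 2.4.6, scipy 1.17.1 and pandas 2.3.3 were used.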

Additional observations from a re-analysis of the deposited data

Results flagged for a closer look

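Of 75 sets of 4 brain values examined with Dixon's test, 3 had 1 brain far from the others, and chance alone flags about 1 in 20. The Slc12a2 level of cluster 1 was 3.45 per 10000 in the hashtag 4 brain, below 5.69 to 6.09 in the brains with hashtags 1, 2 and 3. The Slc4a5 level was 1.55 per 10000 in the hashtag 4 brain, below 2.37 to 2.53 in the others. The median CD25 tag count of cluster 1 was 8 in the hashtag 4 brain and 7 in each of the others, a step of 1 count.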

How the results depend on the processing

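Counts of called genes moved widely with the settings. Against all other cells, genes called higher (2) numbered 220 with a log2 ratio threshold of 1, 0 with a pseudocount of 1, 0 with the mean of the cells, 11 with own-hashtag cells, 2 to 4 when 1 brain was left out, and, by choices made after seeing the data, 50 against cluster 4, 96 against clusters 3 and 6 and 12 without clusters 5 and 8. Genes called lower (1) numbered 358, 0, 10, 0, 1 to 4, 69 and 188 under the same settings up to clusters 3 and 6, 24 with clusters weighted equally and 30 with cells low in Rhox5 and Esx1. Genes differing between brains (217) numbered 11 at a fold of 4, 65 with a pseudocount of 1, 500 without a filter, 516 with own-hashtag cells, 48 with cells low in Rhox5 and Esx1 and 112 to 215 when 1 brain was left out (112 without hashtag 4, 133 without hashtag 2). Genes varying between cells (18) numbered 71 at an excess of 0.25, 41 with a level filter of 0.5, 11 with cells low in Rhox5 and Esx1, and 19 to 31 when 1 brain was left out (31 without hashtag 3, 29 without hashtag 1). The cause of these shifts was not tested.

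Ttr levels in the brains with hashtags 1, 2, 3 and 4 were 3065, 2767, 2708 and 2294 with own-hashtag cells, 4625, 4723, 4490 and 3597 over UMIs without Ttr, 3149, 3249, 3149 and 2581 with size factors, and 3250, 3233, 3652 and 3277 with cells low in Rhox5 and Esx1. A mean of cells gave 3158 (hashtag 2), 3374 (hashtag 3) and 2993 (hashtag 4). Shares of cells in cluster 1 were 38.8%, 56.3%, 30.2% and 26.0% outside clusters 0, 2 and 7, and with own-hashtag cells 29.6%, 7.57% and 5.82% in the brains with hashtags 1, 3 and 4.

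Without the pairing by brain (no replicate block), the mean log2 difference to clusters 3 and 6 stayed -6.93 for CD45 and -6.48 for CD11b, with an adjusted exact permutation p of 0.103 for each, and no tag passed 0.05 in either form. These differences were -7.29 to -6.75 and -6.76 to -6.28 when 1 brain was left out. As a share of the 6 tags, the differences to clusters 3 and 6 were 1.96 for CD86, 0.894 for CD3e, 2.96 for CD4 and 2.69 for CD25, opposite to the counts, and -0.682 for CD45 and -0.119 for CD11b. With means the 2 were -4.96 and -5.1. A share of a fixed sum rises when CD45 and CD11b are low. Small differences to clusters 4 and 9 changed sign or size. Against cluster 4 with means they were 0.20 (CD45), 0.186 (CD11b), 0.091 (CD86) and -0.178 (CD4). With shares they were 0.0406 (CD11b), 0.0467 (CD86), 0.0178 (CD3e) and 0.136 (CD25), and with own-hashtag cells 0.0948 (CD11b) and 0.0876 (CD86). Against cluster 9 they were -1.39 (CD45), -1.34 (CD11b), -0.33 (CD3e), -0.15 (CD4) and -0.0924 (CD25) with means, and 0.0501 (CD11b) and 0.194 (CD86) with shares. Leaving out 1 brain gave -0.0418 to 0.102 (CD4) and -0.0763 to 0.0877 (CD25) against cluster 4. Against cluster 9 it gave -0.227 to 0.00891 (CD45), -0.129 to 0.0139 (CD11b), -0.0665 to 0.0782 (CD4) and -0.0292 to 0.0566 (CD25).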
